A study of Mus musculus with 6 samples.

Results

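The genes described are 41 genes of DNA replication and S phase, taken by symbol from a list fixed by name and found on the array through its probe annotation. They cover origin licensing, the replicative helicase, the polymerases, the sliding clamp and its loader, nucleotide supply, chromatin assembly behind the fork, and 2 E2F transcription factors. A named probe was found for 38 of the 41, out of 16593 genes named on the array. No probe carried the symbols Gins1, Gins2 or Rfc3. Orc1, Pola1 and Slbp each had a probe that was detected on 0 arrays, so 35 members were tested among 9010 genes. These 35 had a detection p under 0.05 on 2 or more arrays, the filter used. Detection on all 6 arrays was found for 34 of them, and Prim1 was detected on the 4 scrambled arrays and on neither miR-128 array.

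The cells were primary vascular smooth muscle cells (VSMC), the contractile cells of the vessel wall, from C57BL/6J mice with a labelled age of 8 weeks. Lentiviral particles carried miR-128 in the group called mir128 and a scrambled miRNA in the groups called shScr1 and shScr2. All 3 groups received virus, puromycin for 2 days and a harvest of total RNA at 5 days, and each holds 2 biological replicates, A and B. What A and B mark beyond that, the promoter of the vector, and whether shScr1 and shScr2 carry different scrambled sequences are unstated in the sources used here. The study asked what raised miR-128 does to the transcriptome of these cells.

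A cell copies its DNA in an ordered series of steps. In G1, the origin recognition complex, CDC6 and CDT1 load the MCM2-7 helicase on origins; in S phase, CDC45 and GINS turn it into an active helicase, and primase and polymerase alpha lay down primers that polymerases delta and epsilon extend. PCNA, loaded by the RFC complex, holds the polymerases on DNA, FEN1 and LIG1 join the lagging-strand fragments, and CAF-1 places histones on the new DNA. Many of these genes are transcribed around the G1/S boundary by E2F factors, which are held back by RB family proteins. Adult smooth muscle cells rarely divide in the vessel wall but enter the cycle in culture and after injury, when contractile genes fall.

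On 5 of the arrays, 11589 to 12343 probes were detected and the upper quartile of raw intensity was 201 to 252. Replicate A of mir128 stood apart, with 13277 probes detected and an upper quartile of 373. The correlation between replicates over all genes was 0.993 for shScr1, 0.991 for shScr2 and 0.974 for mir128. Of the smooth muscle markers, 6 of 7 genes with a probe were detected, Acta2 and Tagln among them. Cnn1 was undetected and Myh11 was detected in mir128 only. Tagln lay at 4.90 to 5.57 on scrambled arrays, near their lowest detected levels of 4.89 to 4.98, and at 9.79 and 10.13 in mir128. Their summed raw intensity was 13010 to 23632 on scrambled arrays, 33432 on mir128 A and 33782 on mir128 B. Against the mean of both scrambled groups and against shScr1, 6 of 6 tested rose. Against shScr2, 5 of 6 rose, Acta2 being the exception. Myh11 passed the filter only through the mir128 arrays, and Lmod1, detected on 1 scrambled array, needed them to reach it. Both genes are high there, so their rises are no independent support. Fibroblast markers summed to 953 to 2217 on scrambled arrays, 3855 on mir128 A and 2139 on mir128 B. Mfap5 rose against the mean of both scrambled groups and Pdgfra fell, while Dcn differed by −0.15 from shScr1 and by 2.23 from shScr2, and the scrambled groups differed in it by −2.38 (adjusted p = 0.0143 in limma). Sums for other cells, which include undetected probes, were 519 to 567 for endothelial genes with 655 and 586 in mir128, and 424 to 454 for leukocyte genes with 662 and 627. Both tested leukocyte markers rose, Cd3e by 1.59 ± 0.33 and Lyz2 by 1.36 ± 0.25 against the mean of both scrambled groups (adjusted p = 0.0151 and 0.0104 in limma), and both mir128 arrays lay above all scrambled arrays. The defining genes Pecam1, Cdh5, Vwf, Ptprc, Adgre1, Adipoq and Plin1 were detected on 0 arrays. Of the other endothelial genes, Kdr was detected on 4 scrambled and 2 mir128 arrays and Tek on 2 and 1. Neither passed the test. Mbp, the lone Schwann gene with a probe, was detected on all arrays and fell by 0.58 ± 0.13 (adjusted p = 0.0200 in limma). The part of the smooth muscle, fibroblast, endothelial, leukocyte and Schwann markers in the results below was not tested.

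The mature strand known as miR-128-3p is shown because it is the product usually meant by the name. Which hairpin and which arm the virus carried is not given in the sources used here. RefSeq places this sequence in both mouse hairpins on GRCm38.p6, at chr1:128202404-128202424 on the plus strand (Mir128-1) and chr9:112118644-112118664 on the minus strand (Mir128-2). Capitals mark the seed, bases 2 to 8.
mmu-miR-128-3p: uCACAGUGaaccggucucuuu

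Promoter windows, 250 bases before to 50 after the RefSeq start of each gene, were matched for 34 of the 41 members and searched on both strands for 4 E2F words, TTTCCCGC, TTTCGCGC, TTTGCCGC and TTTGGCGC. The 34 members have 40 such windows, since 5 have more than 1 start. At least 1 word stood in a window of 13 of the 34 members (38.2%), against 2.60% of 27025 genes with such a window. The 13 were Orc1, Cdc6, Cdt1, Mcm3, Mcm5, Mcm6, Mcm7, Gins3, Pola1, Pold1, Rfc3, Lig1 and E2f2. On the strand of the gene alone, 7 members held a word, against 1.38% of genes. A CCAAT box, letters CCAAT on either strand, was in a window of 22 of the 34 (64.7%) against 41.1% of genes, and the CHR letters TTTGAA in 6 (17.6%) against 20.2%. A match describes letters, not a bound site, and overlapping words in Mcm5 and Mcm6 share bases.

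The windows below are those of the 4 members with a word that fell most and of E2f2, which carries a word and changed least. They come from RefSeq on GRCm38.p6, 5′ to 3′ on the strand of the gene, and capitals mark the words; positions count the first base of the word from the annotated start. The window of Mcm7 is chr5:138171834-138172133 (minus strand, words at −165 and 16) and that of Lig1 is chr7:13278576-13278875 (plus strand, word at 26). Those of Cdc6, Pold1 and E2f2 are chr11:98907901-98908200 (plus strand, word at −138), chr7:44548766-44549065 (minus strand, word at 39) and chr4:136172024-136172323 (plus strand, word at 39).
Mcm7: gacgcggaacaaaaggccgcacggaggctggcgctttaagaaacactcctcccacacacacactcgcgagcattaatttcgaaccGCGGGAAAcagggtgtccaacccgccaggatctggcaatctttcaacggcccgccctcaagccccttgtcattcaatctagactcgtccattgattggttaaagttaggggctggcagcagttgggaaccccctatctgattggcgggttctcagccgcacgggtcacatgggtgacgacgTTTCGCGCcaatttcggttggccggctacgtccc
Lig1: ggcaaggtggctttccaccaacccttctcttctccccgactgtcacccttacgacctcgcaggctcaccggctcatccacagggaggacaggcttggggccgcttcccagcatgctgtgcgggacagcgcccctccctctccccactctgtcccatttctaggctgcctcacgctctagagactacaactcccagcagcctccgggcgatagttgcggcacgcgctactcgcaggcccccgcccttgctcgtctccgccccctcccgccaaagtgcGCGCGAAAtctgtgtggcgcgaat
Cdc6: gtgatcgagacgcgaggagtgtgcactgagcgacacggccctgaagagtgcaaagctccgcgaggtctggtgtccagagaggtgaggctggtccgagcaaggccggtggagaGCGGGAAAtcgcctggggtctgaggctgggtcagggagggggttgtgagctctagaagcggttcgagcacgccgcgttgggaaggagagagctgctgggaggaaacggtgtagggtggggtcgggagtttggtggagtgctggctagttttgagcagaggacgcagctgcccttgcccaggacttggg
Pold1: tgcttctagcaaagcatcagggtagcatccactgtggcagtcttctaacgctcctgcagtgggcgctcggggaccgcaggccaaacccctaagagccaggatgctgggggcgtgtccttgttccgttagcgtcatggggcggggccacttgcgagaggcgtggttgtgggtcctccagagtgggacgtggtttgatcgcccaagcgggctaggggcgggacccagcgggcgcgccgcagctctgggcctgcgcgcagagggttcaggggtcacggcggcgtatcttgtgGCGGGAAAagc
E2f2: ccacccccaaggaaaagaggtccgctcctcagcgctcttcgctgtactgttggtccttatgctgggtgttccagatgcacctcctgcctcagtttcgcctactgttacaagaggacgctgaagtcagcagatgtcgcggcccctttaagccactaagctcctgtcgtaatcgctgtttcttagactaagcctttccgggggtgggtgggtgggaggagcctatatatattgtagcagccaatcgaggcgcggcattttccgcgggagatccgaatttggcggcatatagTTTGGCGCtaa

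Transcripts of the replication machinery were lower in cells given miR-128. Against the mean of both scrambled groups, 25 of 35 tested members fell (limma, adjusted p under 0.05), 0 rose and 10 did not pass; over all 9010 genes, 13.6% fell and 15.6% rose. Prim1 passed the detection filter only through the scrambled arrays, where it is high, and without it 24 of 34 fell with a median of −1.17, where 13.9% of the 8560 genes detected in both arms fell. The median log2 change of the 35 was −1.15, against 0.00 over all genes, and each of the 35 changes was negative, from −2.16 for Mcm7 to −0.04 for E2f2. Both mir128 arrays lay below all 4 scrambled arrays for 30 of the 35, a pattern shown by 22.8% of all genes. The exceptions were Gins3, Pcna, Rrm1, E2f1 and E2f2. Among the 30 is Prim1, which the filter let pass only through the scrambled arrays. RNA came from whole cultures, so fewer cells in S phase and less of a transcript per cell cannot be told apart.

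With each scrambled group taken apart, 17 members fell against shScr1, where 10.7% of all genes did, and 19 against shScr2, where 10.1% did (18 of 34 without Prim1). The medians were −1.10 and −1.20, and 0 members rose in either comparison, where 12.3% and 12% of all genes rose. Both comparisons use the same mir128 arrays. They had 16 called members in common, with Mcm6 called against shScr1 alone and Prim1, Tyms and Chaf1a against shScr2 alone. Gins4, Mcm3, Mcm4, Mcm10 and Fen1 were called only against the mean of both. Between shScr2 and shScr1, which is the test of the difference between both comparisons, 0 of 35 members differed in limma after adjustment (0.0666% of all genes were lower in shScr2 and 0.0222% higher). At an unadjusted p under 0.05 there were 3, Gins3, Prim1 and Rrm2, each higher in shScr2 by 0.62 to 0.67 on the log2 scale.

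The number called moves with the arrays that enter the fit, and so does the share of all genes called lower. Against the mean of both groups it was 14 without shScr1 A (5.77% of all genes), 13 without shScr1 B (5.76%) and 15 without shScr2 A (6.88%). Against shScr1 it was 1 without shScr1 A (0.988%), 3 without shScr1 B (1.15%), 11 without either shScr2 array (5.86%) and 27 without mir128 B (17.5%). Against shScr2 it was 4 without shScr2 A (1.39%) or shScr2 B (1.31%), 10 without either shScr1 array (4.73%) and 31 without mir128 B (16%). Where a group is left with 1 array, that array is assumed to vary like those of the other groups. Called lower against the mean in each of 15 other settings were 12 members: Cdc6, Cdt1, Mcm2, Mcm5, Pola2, Pold2, Pole, Rfc5, Rpa1, Lig1, Rrm2 and Tk1.

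**Figure D1:**
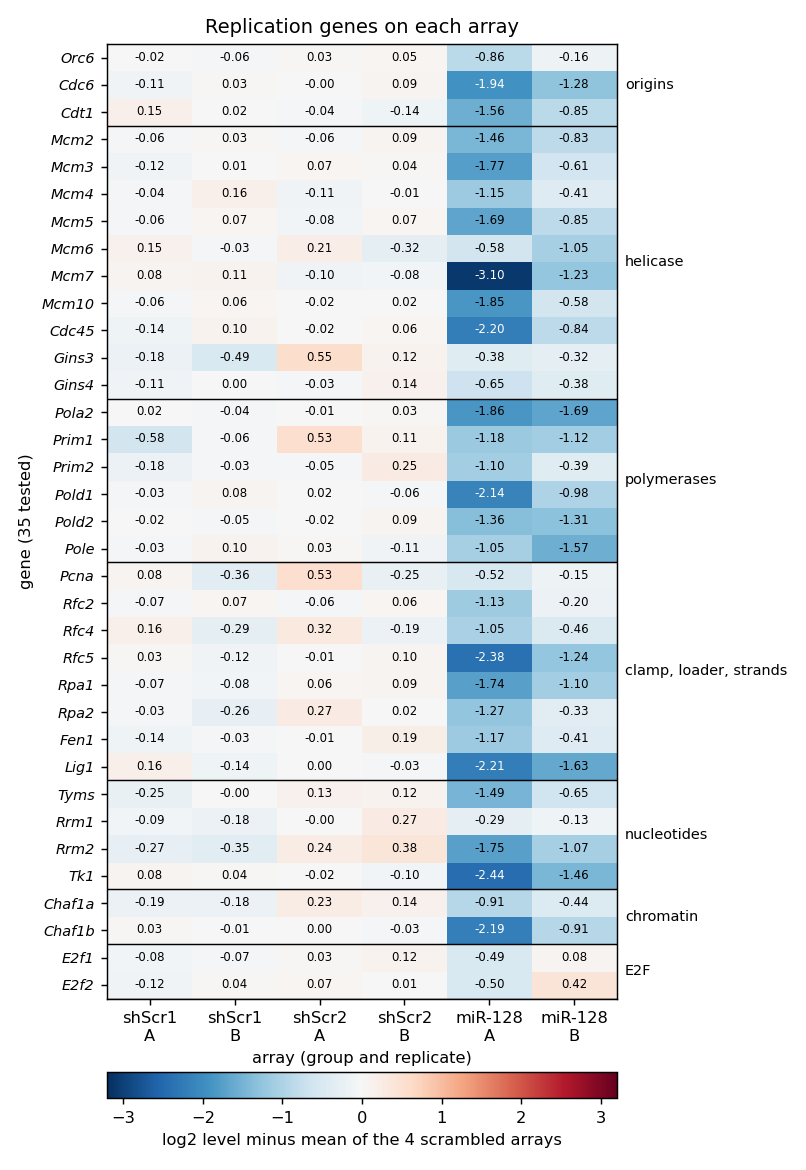
Each cell gives the log2 level of 1 of the 35 tested genes on 1 array minus the mean of the 4 scrambled arrays, with genes ordered by role and blue for lower. The mir128 A column is the bluest, from −3.10 for Mcm7 to −0.29 for Rrm1, and in the mir128 B column the E2F rows at the foot are red, at 0.08 for E2f1 and 0.42 for E2f2, while the other 33 rows are blue.

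**Figure D2:**
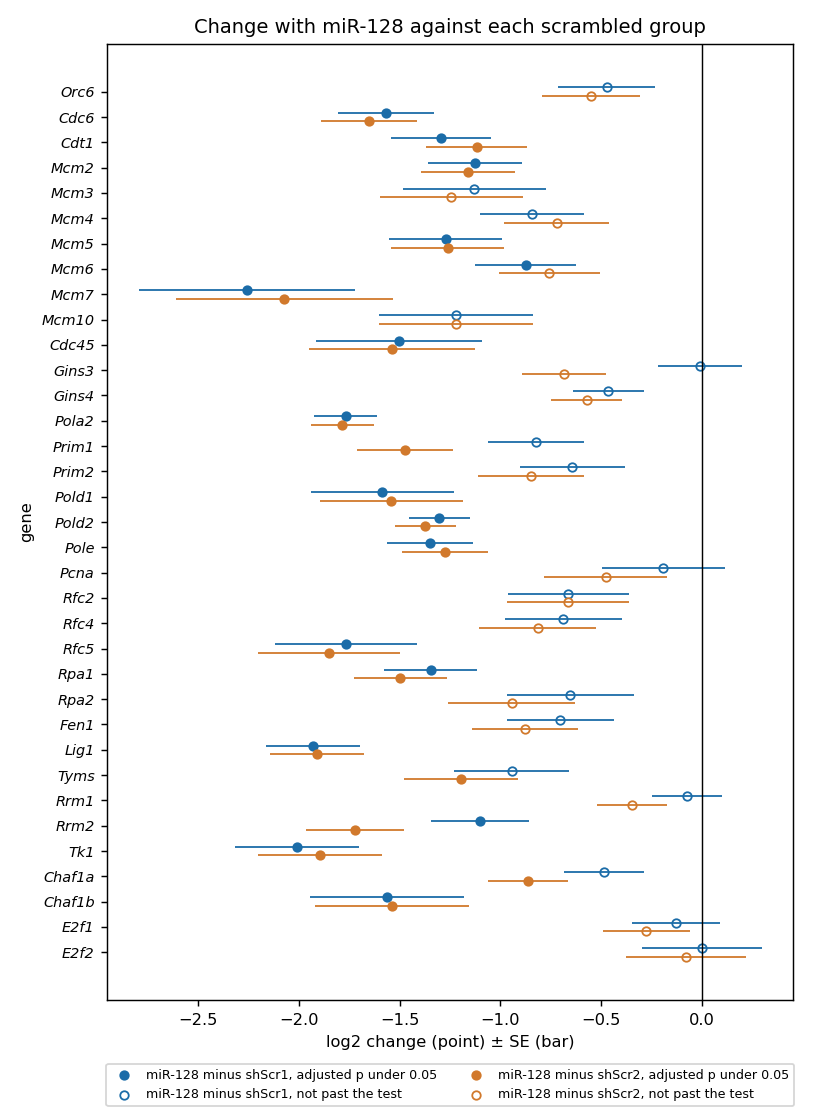
Points give the log2 change of each gene with miR-128 against shScr1 (blue) and shScr2 (orange), bars give the standard error of limma, and filled points passed an adjusted p of 0.05. The 35 points of each colour lie at or left of 0, and the colours lie farthest apart for Gins3, Prim1 and Rrm2.

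The origin licensing genes Cdc6 and Cdt1, whose proteins bring the MCM helicase to origins, both fell. Cdc6 measured 8.69 and 8.84 (log2 intensity, replicates A and B) in shScr1, 8.80 and 8.90 in shScr2, and 6.87 and 7.52 in mir128. The scrambled arrays lay close together and both mir128 arrays lay far below them, A the lower. The change was −1.61 ± 0.21 (SE, n = 2 against 4 arrays; adjusted p = 0.00339 in limma), a 3.05-fold fall, with 2.96-fold against shScr1 and 3.14-fold against shScr2. Cdt1, which geminin restrains after origins have fired, measured 11.10 and 10.97 in shScr1, 10.92 and 10.81 in shScr2, and 9.39 and 10.10 in mir128. Again the groups did not overlap, and the change was −1.21 ± 0.22 (adjusted p = 0.00991 in limma), 2.31-fold. Orc6, the smallest subunit of the origin recognition complex, lay between 10.96 and 11.07 on scrambled arrays with 10.16 and 10.85 in mir128, and its change of −0.51 ± 0.21 did not pass (adjusted p = 0.116 in limma). With mir128 A as the lone mir128 array its change was −0.86, and with mir128 B −0.16. Orc1, a further subunit of that complex, was not detected on any array.

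Most helicase genes fell, 9 of 10 tested against the mean of both scrambled groups (5 against shScr1 and 4 against shScr2), with a median of −1.17. Mcm2, a subunit of the hexamer that also binds histones, measured 10.44 and 10.53 in shScr1, 10.45 and 10.60 in shScr2, and 9.04 and 9.68 in mir128. The groups stood apart, and the change was −1.14 ± 0.20 (adjusted p = 0.00947 in limma), 2.21-fold. Mcm5, another subunit, measured 12.42 and 12.54 in shScr1, 12.39 and 12.54 in shScr2, and 10.79 and 11.63 in mir128. Its scrambled values differed by less than the gap between the mir128 arrays, which both lay lower, and the change was −1.27 ± 0.24 (adjusted p = 0.0122 in limma), 2.40-fold.

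Mcm7 had the largest fall of the 35 and the widest gap between the mir128 replicates on the values used here. It measured 9.47 and 9.50 in shScr1, 9.29 and 9.31 in shScr2, and 6.29 and 8.16 in mir128. Replicate A was 8.55-fold and replicate B 2.35-fold below the scrambled mean, so both were lower but by unlike amounts. The change was −2.16 ± 0.47 (adjusted p = 0.0172 in limma), and it did not pass without shScr1 A (adjusted p = 0.0562 in limma) or shScr1 B (0.0567). On the authors' processed values the fall of Mcm7 was smaller, at −0.97, and Tk1 fell most, at −1.43. The window of Mcm7 printed above was also the only printed window with a word both far before and just after the start. Cdc45, which joins the MCM ring to form the active helicase, measured 8.78 and 9.02 in shScr1, 8.90 and 8.97 in shScr2, and 6.72 and 8.08 in mir128. Replicate A was 4.60-fold and replicate B 1.79-fold lower, and both lay below each scrambled array. Its change of −1.52 ± 0.36 passed (adjusted p = 0.0224 in limma), but with any 1 scrambled array left out the adjusted p was 0.0590 to 0.0725 (limma).

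Among the remaining helicase genes, Mcm3, Mcm4, Mcm6 and Mcm10 fell by 1.19, 0.78, 0.82 and 1.22 on the log2 scale (SE 0.31, 0.22, 0.22 and 0.33). MCM10 helps to activate the helicase and is no part of the ring. Gins4, a GINS subunit, fell by 0.52 ± 0.15 (adjusted p = 0.0451 in limma) and was the least changed of the 9 that passed. None of these 5 held its call when shScr1 A or shScr1 B was left out (adjusted p 0.0806 to 0.141 in limma). Gins3, a further GINS subunit, lay between 5.81 and 6.85 on scrambled arrays, with 5.93 and 5.98 in mir128 inside that range. Its change was −0.35 ± 0.18 (adjusted p = 0.197 in limma), with −0.01 against shScr1 and −0.68 against shScr2. The scrambled groups themselves differed by 0.67 ± 0.21 (adjusted p = 0.281 in limma).

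Polymerase and primase genes held the smallest adjusted p of the members. Their mir128 replicates lay close together for Pola2 and Pold2. A minus B in mir128 was −1.16 for Pold1, −0.71 for Prim2 and 0.52 for Pole, and Prim1 was undetected on both arrays. Of 6 tested, 5 fell against the mean of both scrambled groups, 4 against shScr1 and 5 against shScr2, and the median was −1.33. Without Prim1, which passed the filter only through scrambled arrays, 4 of 5 fell in each comparison, with a median of −1.34 against the mean. Pola2, the B subunit of polymerase alpha, measured 8.74 and 8.69 in shScr1, 8.71 and 8.75 in shScr2, and 6.87 and 7.03 in mir128. The 4 scrambled arrays were almost level and both mir128 arrays lay far below. The change was −1.78 ± 0.13 (adjusted p = 0.000887 in limma), 3.42-fold. Pold2, the accessory subunit of polymerase delta, measured 10.03 and 9.99 in shScr1, 10.03 and 10.14 in shScr2, and 8.69 and 8.73 in mir128. Both mir128 arrays agreed closely and lay well below the rest, with a change of −1.34 ± 0.13 (adjusted p = 0.00173 in limma), 2.53-fold.

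The catalytic subunits of the leading- and lagging-strand polymerases fell as well. Pold1, of polymerase delta, changed by −1.56 ± 0.31 (adjusted p = 0.0131 in limma), with mir128 A 4.42-fold and B 1.98-fold below the scrambled mean. Without shScr1 B its adjusted p in limma lay just above the threshold. Pole, of polymerase epsilon, changed by −1.31 ± 0.18 (adjusted p = 0.00449 in limma), and here replicate B was the lower, 2.97-fold against 2.07-fold in A.

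Prim1, the catalytic subunit of primase, was the member that the mir128 arrays did not detect. It measured 5.01 and 5.53 in shScr1, 6.13 and 5.71 in shScr2, and 4.42 and 4.48 in mir128. Since Prim1 passed the filter only through the scrambled arrays, it had to be higher there, and its test is no independent support. All scrambled values lay above the mir128 values, and both shScr2 values lay above both shScr1 values. Set against the lowest level detected on each mir128 array, it was at least 1.78-fold lower than the mean of both scrambled groups (adjusted p = 0.00991 in limma). The bound was at least 2.22-fold against shScr2 (adjusted p = 0.00954 in limma) and at least 1.42-fold against shScr1, where the test was not passed (0.0504). On the authors' own processed values the change was −0.12 and did not pass (adjusted p = 0.0777 in limma). Prim2, the large primase subunit, changed by −0.75 ± 0.23 with an adjusted p of 0.0504 in limma, and both of its mir128 arrays, 7.77 and 8.48, lay below the scrambled range of 8.69 to 9.12. Pola1, the catalytic subunit of polymerase alpha, was not detected.

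Genes of the clamp, its loader, single-stranded DNA binding and the lagging strand divided into 4 that fell and 4 that did not pass, with a median of −0.79; against each scrambled group 3 of 8 fell. Lig1, the ligase that seals lagging-strand fragments, measured 9.44 and 9.13 in shScr1, 9.28 and 9.25 in shScr2, and 7.06 and 7.65 in mir128. The groups did not overlap, and the change was −1.92 ± 0.20 (adjusted p = 0.00214 in limma), 3.78-fold. Rpa1, the large subunit of the protein that coats single-stranded DNA, measured 12.37 and 12.36 in shScr1, 12.50 and 12.53 in shScr2, and 10.70 and 11.34 in mir128. Both mir128 arrays lay below the tight scrambled range, with a change of −1.42 ± 0.20 (adjusted p = 0.00449 in limma), 2.68-fold. Rpa2, a smaller subunit of the same protein, did not pass, at −0.80 ± 0.27 (adjusted p = 0.0706 in limma).

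Within the clamp loader, Rfc5 fell by 1.81 ± 0.31 on the log2 scale (adjusted p = 0.00817 in limma), with mir128 A 5.20-fold and B 2.36-fold lower. Rfc2 and Rfc4, which sit in the same complex, changed by −0.66 ± 0.26 and −0.75 ± 0.25 and did not pass (adjusted p = 0.104 and 0.0667 in limma). With mir128 A as the lone mir128 array they changed by −1.13 and −1.05, and with mir128 B by −0.20 and −0.46. Fen1, which trims the flaps of lagging-strand fragments, fell by 0.79 ± 0.23 (adjusted p = 0.0435 in limma), a call lost when any 1 array other than mir128 B was left out (adjusted p 0.0871 to 0.122 in limma). Pcna, the sliding clamp, lay between 6.67 and 7.56 on scrambled arrays and at 6.52 and 6.88 in mir128. Its groups overlapped, and the change of −0.33 ± 0.26 did not pass (adjusted p = 0.384 in limma), with a 95% interval of −0.97 to 0.30.

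In nucleotide supply, 3 of 4 genes fell against the mean of both scrambled groups, 2 against shScr1 and 3 against shScr2. Tk1, the cytosolic thymidine kinase of S phase, measured 10.85 and 10.80 in shScr1, 10.75 and 10.67 in shScr2, and 8.33 and 9.30 in mir128. Each mir128 array lay far under the scrambled arrays, A the lower, and the change was −1.95 ± 0.27 (adjusted p = 0.00421 in limma), 3.87-fold. Rrm2, the cell-cycle-regulated subunit of ribonucleotide reductase, measured 8.85 and 8.77 in shScr1, 9.36 and 9.50 in shScr2, and 7.37 and 8.05 in mir128. Scrambled groups differed from each other here, and mir128 lay below both. The change was −1.41 ± 0.21 (adjusted p = 0.00541 in limma), with 2.14-fold against shScr1 and 3.30-fold against shScr2.

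Rrm1, the large subunit of the same enzyme, was among the 3 members that changed least. It measured 10.11 and 10.02 in shScr1, 10.20 and 10.48 in shScr2, and 9.91 and 10.07 in mir128. Replicate B of mir128 lay inside the scrambled range, and the change of −0.21 ± 0.15 did not pass (adjusted p = 0.336 in limma; 95% interval −0.57 to 0.15). Tyms, thymidylate synthase, fell by 1.07 ± 0.25 (adjusted p = 0.0212 in limma), and the call was lost without any 1 scrambled array (adjusted p 0.0574 to 0.0728 in limma).

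Both tested subunits of CAF-1, the chaperone that deposits histones H3 and H4 at the fork, fell. Chaf1b measured 10.18 and 10.13 in shScr1, 10.14 and 10.12 in shScr2, and 7.95 and 9.23 in mir128. The scrambled arrays were level and the mir128 arrays lay below them but wide apart, A 4.56-fold and B 1.88-fold lower. The change was −1.55 ± 0.33 (adjusted p = 0.0168 in limma), not passed without shScr1 A, shScr1 B or shScr2 A (adjusted p 0.0506 to 0.0575 in limma). Chaf1a, the large subunit, measured 8.88 and 8.89 in shScr1, 9.31 and 9.22 in shScr2, and 8.17 and 8.63 in mir128. It lay higher in shScr2 than in shScr1, with both mir128 arrays below either. The change was −0.68 ± 0.17 (adjusted p = 0.0288 in limma), and leaving out any 1 array other than mir128 B ended the call (adjusted p 0.0574 to 0.0908 in limma). Slbp, which binds the stem-loop of histone mRNA, was not detected on any array.

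The E2F genes themselves were the least changed of the list. E2f1 measured 9.93 and 9.94 in shScr1, 10.04 and 10.12 in shScr2, and 9.52 and 10.09 in mir128. Replicate A lay below the scrambled arrays and replicate B within them. The change was −0.20 ± 0.19 (adjusted p = 0.461 in limma; 95% interval −0.65 to 0.25). E2f2 measured 7.23 and 7.39 in shScr1, 7.42 and 7.36 in shScr2, and 6.85 and 7.77 in mir128. Here replicate A lay below and replicate B above every scrambled array, and the change was −0.04 ± 0.26 (adjusted p = 0.923 in limma; 95% interval −0.66 to 0.58). Both signs turned without mir128 A, to 0.08 for E2f1 and 0.42 for E2f2.

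Among tested members with a promoter window, 10 held an E2F word. The median change of these 10 was −1.24, and 8 of them fell. The other 20 had a median of −1.15, and 14 of them fell. Prim1 is among these 14 and passed the filter only through the scrambled arrays, so its fall is no independent support. The members with a word thus ran from the largest fall, Mcm7, to the smallest, E2f2, and the difference between the medians was not tested.

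The 2 mir128 arrays gave unlike sizes of change. Replicate A lay below replicate B for 33 of 35 members, against 50.1% of all genes, with Mcm6 and Pole the exceptions. The median change against the scrambled mean was −1.36 in A and −0.83 in B, and the median of A minus B was −0.70, while it was −0.01 in shScr1 and −0.02 in shScr2. Over all genes the median of A minus B in mir128 was 0.00. The SD over members had a median of 0.49 between the mir128 arrays and 0.10 over the 4 scrambled arrays, and over all genes of 0.22 and 0.19. The fit assumes the same spread in each group, so for these genes it may state the error of the mir128 mean too small. Replicate A is also the brightest array, and with arrays scaled to a common median in place of quantile normalization the median of A minus B was −0.24, against 0.37 over all genes. The part of its brightness in the gap was not tested.

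**Figure D3:**
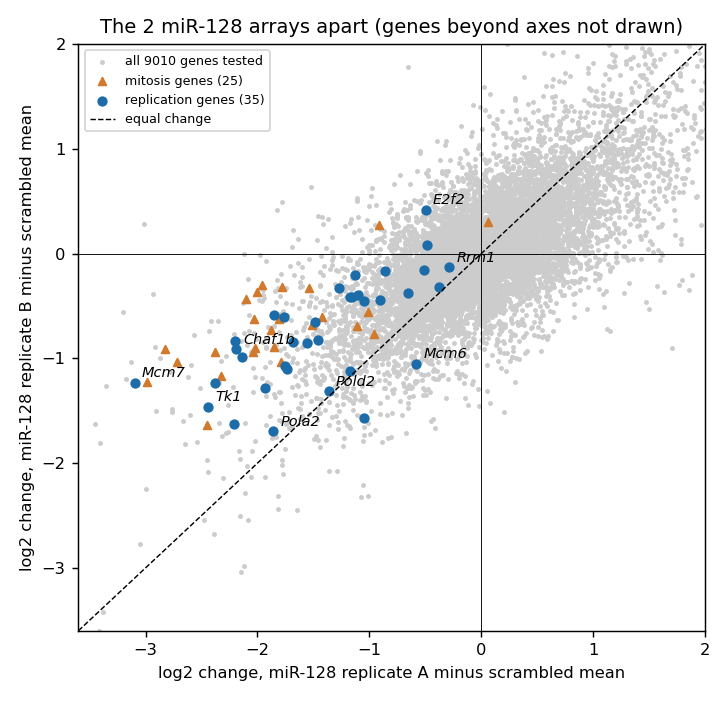
Each point is a gene, with its log2 change on mir128 replicate A (horizontal) and replicate B (vertical) against the mean of the 4 scrambled arrays, for replication genes (blue), mitosis genes (orange triangles) and all genes within the axes (grey). Most blue points lie above the dashed line of equal change, so that A fell further than B, while Pola2 and Pold2 lie near it and Mcm6 below it.

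Several members had more than 1 probe past the filter, and these served as a further look at the same transcripts on the same arrays. Tested probe by probe over 12452 probes, 36 of 56 member probes fell against the mean of both scrambled groups and 0 rose, against 13% of all probes that fell, and each of the 56 changes was negative. A probe each of Cdc6, Mcm6, Prim1, Lig1 and Tk1 was detected on 0 mir128 arrays and passed the filter only through scrambled arrays. Their falls are no independent support, and those of Prim1 and Tk1 are among the 36. The 35 brightest probes are the ones used above. Of the other 21 probes, from 12 members, 12 fell, that Tk1 probe among them, and 0 rose. Tk1 fell on each of its 3 probes, by 1.95, 2.03 and 0.92 on the log2 scale, and Rrm2 on both, by 1.41 and 1.27. The Tk1 probe that fell by 0.92 was detected on 4 scrambled and 0 mir128 arrays, so it had to be higher in scrambled cells. Lig1 fell on 3 of 4, Tyms on 3 of 5 and Mcm6 on 2 of 4. Rfc4 and Prim2, not called on the brightest probe, each passed on the dimmer probe (adjusted p = 0.00739 and 0.0274 in limma). The E2f2 probes matched each other, at −0.04 and −0.08. The dim probe of Cdc6, detected on 2 arrays, gave −0.34 ± 0.36 and did not pass.

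**Figure D4:**
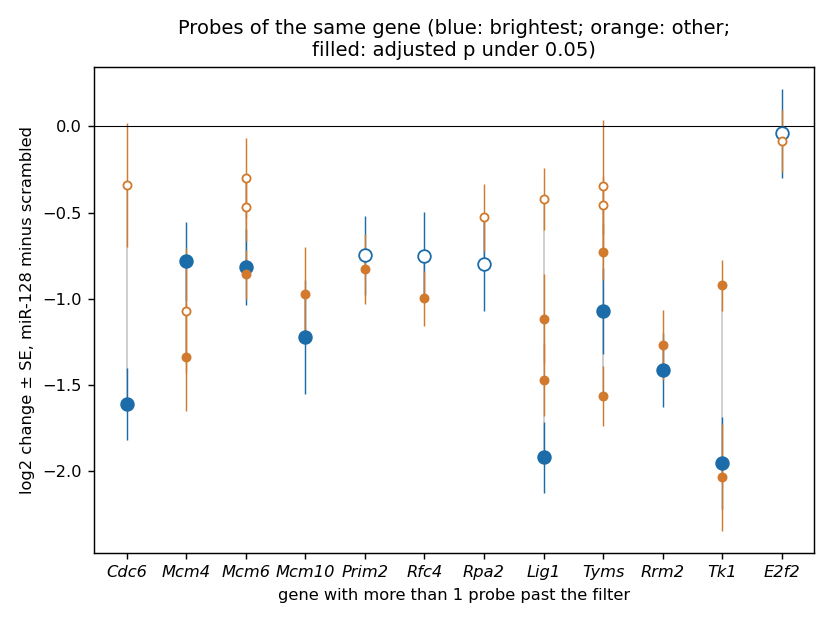
Points give the log2 change of each probe of the 12 members with more than 1 probe past the filter, for mir128 against the mean of both scrambled groups, with the standard error of limma. The brightest probe is blue and the others orange, filled where the adjusted p was under 0.05, and each point lies below 0.

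Genes that work beside the members were counted in lists of their own. Of 40 replication accessory factors, 30 were tested, 17 fell and 0 rose, with a median of −0.65 against the mean of both scrambled groups. Exo1, among the 17, was detected on 0 mir128 arrays and passed the filter only through scrambled arrays; without it 16 of 29 fell. The smallest adjusted p were those of Rnaseh2c, a subunit of the ribonuclease that removes ribonucleotides from DNA (3.82-fold lower, adjusted p = 0.000968 in limma), Wdhd1, which links the helicase to polymerase alpha (3.10-fold, 0.00173), and Donson, a replication fork protein (2.76-fold, 0.00174). Of 20 tested genes of S phase entry and the replication checkpoint, 13 fell and 1 rose, with a median of −0.90. Ccna2 and Chek1, among the 13, and Gmnn passed the filter only through scrambled arrays; without these, 11 of 17 fell and the median was −1.09. Hus1, of the checkpoint clamp, fell 2.73-fold (adjusted p = 0.00229 in limma), Tipin, which protects stalled forks, 2.63-fold (0.00266), and Dnmt1, the maintenance DNA methyltransferase, 3.61-fold (0.00346). The gene that rose was Rad17, which loads the checkpoint clamp, at 0.62 ± 0.18 (adjusted p = 0.0460 in limma), a call not reached against shScr1 (0.0606) or shScr2 (0.108) alone.

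E2F and pocket protein genes other than E2f1 and E2f2 had a median of 0.16, with 3 of 11 tested lower and 1 higher. The lower ones were E2f4, a mainly repressive E2F (2.00-fold, adjusted p = 0.0191 in limma), Lin54, the DNA-binding part of the DREAM complex (1.75-fold, 0.0410), and Rbl1, which encodes the pocket protein p107 (1.89-fold, 0.0487). Against shScr1 alone, neither Lin54 nor Rbl1 passed (adjusted p = 0.123 for both in limma), and Rbl1 did not pass against shScr2 alone (0.0595). E2f5 rose against the mean, by 0.52 ± 0.15 (adjusted p = 0.0456 in limma), but passed against neither shScr1 (0.105) nor shScr2 (0.0624) alone. Mitosis genes, which peak after S phase, fell in 18 of 25, with 0 higher and a median of −1.27; Top2a, Espl1 and Mad2l1 led with adjusted p of 0.00266, 0.00796 and 0.00947 in limma. Replicate A of mir128 was lower than B for 25 of these 25, with medians of −1.88 and −0.69, so the gap between replicates was not confined to the replication genes. Among 6 tested CDK inhibitors, Cdkn1a and Cdkn2b rose, by 1.60 ± 0.14 and 1.91 ± 0.20. Cdkn2d fell by 1.07 ± 0.31 (adjusted p = 0.0427 in limma), a call not reached against shScr1 (0.0942) or shScr2 (0.0612) alone. Cdkn1b was lower against shScr1, at −0.95 ± 0.25 (adjusted p = 0.0402 in limma). It did not pass against shScr2 (0.259) or the mean of both groups (0.0570).

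**Figure D5:**
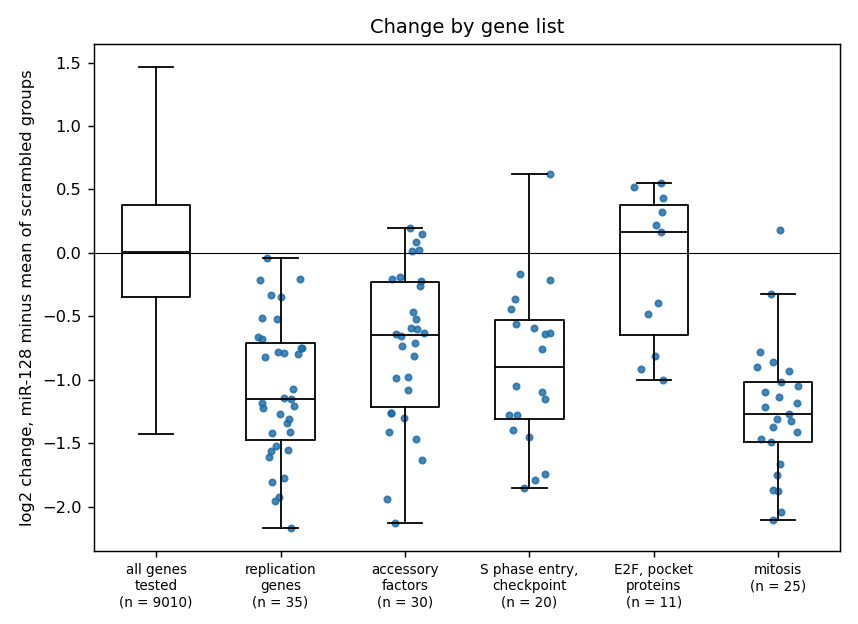
Boxes give the median and quartiles of the log2 change of mir128 against the mean of both scrambled groups, for all genes tested and for each gene list, with a point per gene of a list. The replication genes (median −1.15) and mitosis genes (−1.27) lie lowest, and the E2F and pocket proteins (0.16) lie around 0.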

How the data were processed

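The 41 members and the other gene lists were chosen with earlier results of these data known. The authors deposited, for 25697 Illumina probes on 6 arrays, a linear intensity and a detection p-value, per the file headers. They also deposited processed values on a log2-like scale (median 7.77 per array) whose transform is not given in the sources used here; each array correlated at 0.986 or more with its own column and at 0.840 or less with others. GenomeStudio 2011.1, lumi and limma are named in the submitters' processing notes.

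Intensities were corrected and normalized here with neqc in limma 3.58.1 (R 4.3.3): normexp with background from the detection p-values, offset 16, log2, quantiles. Probes detected (p under 0.05) on 2 or more arrays were kept, and of these the brightest named probe per gene. Group means were fitted with lmFit and eBayes (3 residual and 3.52 prior degrees of freedom), two-sided, with Benjamini-Hochberg adjustment over 9010 genes and a threshold of 0.05. The scrambled groups weigh equally in their mean. Each p-value sets a difference against a spread pooled over the 3 groups of 2 arrays and drawn toward that of all genes. So few arrays limit precision. An undetected group was set at the lowest detected signal of its arrays, as a bound. Fully described were, in each role, the 2 members of smallest adjusted p, Prim1, and the 3 members with the widest gap between mir128 replicates or the smallest change; from other lists, the 3 genes of smallest adjusted p and any called to the opposite side. Rbl1, Cdkn1b, Cdkn2d, Exo1, Ccna2, Chek1, Gmnn, Dcn, Mfap5, Pdgfra, Cd3e, Lyz2 and Lmod1 were named after their values were seen. They complete small counts or exceptions, and members outside the rule above are given by change alone or by range. The fit alone was tested on simulated normalized values, with the same spread in each group. Normalization, the filter and the wider spread of the members in mir128 were not simulated. Alternatives were other background, scaling, filters and probe rules, the authors' values, other fits and leaving out each array.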

Additional observations from a re-analysis of the deposited data

How the results depend on the processing

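Against the mean of both scrambled groups, 19 to 28 members fell under the settings that kept all arrays (6.3% to 18% of all genes), and 13 to 31 when each array was left out in turn (5.76% to 18.5%). Leaving out arrays gave 1 to 27 members lower against shScr1 and 4 to 31 against shScr2, with medians of −1.33 to −0.76, −1.47 to −0.77 and, against the mean, −1.36 to −0.83 (0.0401 to 0.0909 between scrambled groups). With only the arrays of the groups compared, 11 fell against shScr1 (5.86% of all genes) and 10 against shScr2 (4.73%). Fewer arrays enter that fit. On the authors' values the medians were −0.65 against shScr1, −0.66 against the mean and 0.0417 between scrambled groups, and E2f2 turned to 0.0077; the cause was not tested. Scaling to a common median put the median of all genes at 0.195, from 0.0037, and moved the calls over all genes from 1222 lower and 1408 higher to 568 and 1552. It left 22 members lower, put the median of A minus B at −0.24 (−0.60 relative to all genes) and that between scrambled groups at 0.0025, and turned Gins3 to 0.0172, Pcna to 0.0055 and E2f2 to 0.2876, none past the test. With arrays left out in turn, E2f1 ranged from −0.4878 to 0.0839 and E2f2 from −0.4982 to 0.4182, positive without mir128 A and, for E2f2, without shScr1 B. On the gene strand alone, 7 members held an E2F word. With replicate letter as a replicate block, 26 members fell against the mean (13.6% of all genes), Prim2 joining (adjusted p = 0.0283 in limma). In that fit, 19 fell against shScr1 (10.6% of all genes) and 23 against shScr2 (9.91%). The letters are not stated to pair samples, and A minus B correlated across genes at 0.12 to 0.15 between groups. Without the detection filter, 19 of 38 members and 6.66% of 16593 genes fell against the mean. The cause of the lower count was not tested.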
